A study of Mus musculus with 15 samples.

Results

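The guanylate-binding proteins are a family of large GTPases, and 10 mouse genes of this family, Gbp2 to Gbp11, were followed in WEHI-164 tumors during and after repeated injection of poly(I:C). WEHI-164 is a fibrosarcoma line of BALB/c mice, and poly(I:C) is a man-made duplex RNA that cells sense as viral RNA. The genes were taken by symbol from the deposited table of counts, which has 32544 rows, and all 10 were found and passed the filter on low counts that left 15494 genes for testing. Tumors grown under the skin of female, wild-type BALB/c mice were collected untreated on day 0 and after daily intratumoral poly(I:C) on days 1, 3, 5 and 7, with 3 tumors per day and 15 in all. According to the labels each injection held 1 µg in 25 µL and 6 doses were planned, and the study's methods also give 1 µg. However, a legend among the study's supplements names a higher dose for the same time course, so the dose is uncertain. With 6 daily doses and harvest days counted from the first dose, the day 7 tumors were by plan taken after dosing had ended. Every group shared the host strain, the sex and the tumor line, and no vehicle-injected tumors were analysed here. Therefore poly(I:C), the injections, the end of dosing before day 7 and the growth of the tumor over the week cannot be told apart.

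Guanylate-binding proteins are among the genes most strongly induced by interferon-γ, and type I interferons induce many of them as well. Interferon-γ acts on promoters through gamma-activated sites, whereas type I interferons act mainly through interferon-stimulated response elements. The proteins bind and hydrolyse GTP, assemble on the membranes of pathogens and of the vacuoles around them, and open bacteria to the cytosolic sensors that start inflammasome signaling and pyroptosis. Some members carry a C-terminal motif for prenylation, which anchors them in membranes, and the ATG8 conjugation machinery of autophagy directs them, with the related immunity-related GTPases, to vacuoles. In tumors they are widely read as part of an interferon-γ signature, although macrophages, endothelial cells, lymphocytes and the tumor cells themselves can all express them. In bulk tumor RNA, fewer cells of a type and less RNA per cell cannot be told apart.

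The genes lie in 2 clusters of the GRCm38 genome, with positions from GENCODE M21. On chromosome 3, on the plus strand, Gbp5 spans 142493978 to 142522344, Gbp7 142530342 to 142550149, Gbp3 142560026 to 142573209 and Gbp2 142620602 to 142638008. On chromosome 5, on the minus strand, Gbp8 spans 105014150 to 105139540, Gbp9 105077630 to 105139539, Gbp4 105115767 to 105139586, Gbp10 105215699 to 105239533, Gbp6 105270702 to 105293698 and Gbp11 105323042 to 105346472. The gene models of Gbp8 and Gbp9 run across Gbp4. All 10 are annotated as protein coding except Gbp11, which is a polymorphic pseudogene. Gbp2b, which lies between Gbp3 and Gbp2 on chromosome 3 and is the gene also known as Gbp1, was present in the table but was not one of the 10, and Gbp2-ps had a count of 0 in every tumor.

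Promoters are shown for the 4 chromosome 3 members, the only members whose promoters were searched. Their first promoters hold the letters of the type I interferon element in all 4, and those of the interferon-γ element also in Gbp5 and Gbp7. The sequences are those of RefSeq on GRCm38.p6, the 250 bases before the annotated start, and capitals mark matches to the interferon-stimulated response element, spelled GAAANNGAAA, and to the gamma-activated site, spelled TTCNNNGAA, on either strand. Where matches overlap or touch they form 1 capital run. For Gbp2, Gbp3 and Gbp5 the first base annotated by GENCODE lies upstream of the RefSeq start used here.
Gbp2, chr3:142620413-142620662, plus strand: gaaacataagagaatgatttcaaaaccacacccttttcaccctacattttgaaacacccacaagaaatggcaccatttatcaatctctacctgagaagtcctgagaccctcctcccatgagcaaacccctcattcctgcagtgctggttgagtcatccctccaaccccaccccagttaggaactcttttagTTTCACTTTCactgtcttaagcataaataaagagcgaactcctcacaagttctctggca
Gbp3, chr3:142559794-142560043, plus strand: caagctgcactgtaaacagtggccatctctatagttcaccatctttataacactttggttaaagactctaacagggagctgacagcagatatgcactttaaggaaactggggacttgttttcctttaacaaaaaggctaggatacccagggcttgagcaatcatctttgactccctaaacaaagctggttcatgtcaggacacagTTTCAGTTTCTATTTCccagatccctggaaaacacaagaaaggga
Gbp5, chr3:142496684-142496933, plus strand: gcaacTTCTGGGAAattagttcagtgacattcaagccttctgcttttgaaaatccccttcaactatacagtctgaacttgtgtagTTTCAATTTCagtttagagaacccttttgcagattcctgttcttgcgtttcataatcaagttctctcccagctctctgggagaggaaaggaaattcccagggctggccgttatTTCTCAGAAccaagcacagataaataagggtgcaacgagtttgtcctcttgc
Gbp7, chr3:142530086-142530335, plus strand: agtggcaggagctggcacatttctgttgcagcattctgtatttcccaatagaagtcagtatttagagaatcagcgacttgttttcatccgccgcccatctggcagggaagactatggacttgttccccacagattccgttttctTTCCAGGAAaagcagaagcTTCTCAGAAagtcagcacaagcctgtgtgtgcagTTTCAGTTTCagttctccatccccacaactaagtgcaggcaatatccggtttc
In the window from 250 bases before to 50 after the start, GAAANNGAAA was found in 3.44% of 32851 RefSeq mouse promoters and in the first promoter of all 4 members. It lay at −59 to −50 in Gbp2, at −165 to −156 in Gbp5 and at −53 to −44 in Gbp7, and Gbp3 held a pair of overlapping matches at −45 to −36 and −39 to −30. The second annotated promoter of Gbp3 had no match to either motif. The planned, shorter spelling GAANNGAAA was found in 7.52% of promoters. Of the 4 members, the first promoters of Gbp5 and Gbp7 held it, and those of Gbp2 and Gbp3 did not. TTCNNNGAA was found in 8.3% of all promoters. Gbp5 held it at −245 to −237 and −52 to −44, and Gbp7 at −106 to −98 and −87 to −79, while the windows of Gbp2 and Gbp3 did not contain these letters. Both motifs together were present in 0.454% of promoters, Gbp5 and Gbp7 among them. Gbp2b, outside the 10, had 1 match to GAAANNGAAA at −137 to −128. A match is a string of letters and was not tested as a binding site. Promoters of the 6 chromosome 5 members, Gbp4, Gbp6, Gbp8, Gbp9, Gbp10 and Gbp11, were not analysed here.

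Several members are near copies of one another, which limits how reads can be assigned. Of the 31-base words in the annotated exons, 96.9% were unique to the gene in Gbp5, 95.1% in Gbp2, 94.4% in Gbp3, 85.3% in Gbp7, 85.1% in Gbp4, 81.7% in Gbp9, 68.9% in Gbp8 and 65.7% in Gbp11. In Gbp6 25.7% and in Gbp10 10.2% were unique. Gbp10 shared 80.8% of its words with Gbp6, and the predicted gene Gm43302, which spans 105214907 to 105293695 on chromosome 5 across both, shared 67.8% of the words of Gbp6 and 76.7% of those of Gbp10. Counts of Gbp6 and Gbp10 are therefore uncertain as values of single genes, and both are also given below as a sum with Gm43302.

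Tumors had 23718507 to 31919739 estimated counts. Counts per tumor ranged from 4835 to 25479 for Gbp4, the member with the most counts, and from 106 to 820 for Gbp11, the member with the fewest, so that counting error was small beside the spread between tumors. Values are CPM, counts scaled to a library of fixed size with TMM factors, which correct for differences in composition. The first day 3 tumor stood apart from the others, with a mean correlation to them of 0.884 against 0.956 to 0.976 for the rest, and its summed skeletal muscle markers reached 2160 CPM against 2.42 to 137 CPM in the other 14 tumors. Results of the members that rest on it are given with and without it. For some other genes and for the markers, values of single tumors are given. The listed fibroblast and sarcoma markers were abundant in every tumor, at 17800 CPM in sum in the first day 3 tumor and 7260 to 11000 CPM in the other 14. Nothing in the labels ties a tumor to a mouse, so the p-values measure the spread between these tumors.

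**Figure D1:**
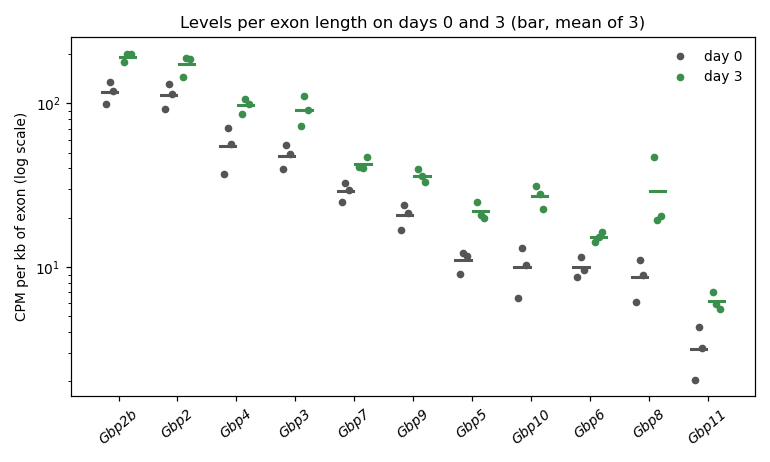
Level of each guanylate-binding protein gene in CPM per kb of exon (log scale) in the 3 untreated tumors of day 0 (grey) and the 3 tumors of day 3 (green), with bars at the means and genes ordered by the day 0 mean. Gbp2b and Gbp2 lead at 117 and 112 CPM per kb on day 0, and Gbp11 is last at 3.17 CPM per kb.

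Untreated tumors already expressed the whole family. Levels of different genes were compared per kb of annotated exon. Gbp2, which restricts intracellular parasites and bacteria, was the most abundant of the 10 on day 0 at 112 ± 19.5 CPM per kb (SD, n = 3), next to 117 ± 17.8 CPM per kb for the neighboring Gbp2b. Gbp4 followed at 54.6 ± 16.6 CPM per kb and Gbp3 at 48 ± 7.8 CPM per kb, and their day 0 ranges overlapped, as did those of Gbp2 and Gbp2b. Gbp7, a member linked to host defense of phagocytes, was at 29 ± 3.88 CPM per kb, above the range of Gbp9 at 20.8 ± 3.68 CPM per kb. Gbp5, known for promoting NLRP3 inflammasome assembly, was at 11 ± 1.65 CPM per kb. Gbp10 at 9.96 ± 3.34, Gbp6 at 9.94 ± 1.43 and Gbp8 at 8.71 ± 2.51 CPM per kb could not be ordered among themselves or against Gbp5, since their ranges overlapped. Gbp11 was lowest at 3.17 ± 1.12 CPM per kb, below the range of every other member. On day 3 Gbp2 was again first of the 10, at 174 ± 25.1 CPM per kb. The ranges of Gbp4 at 97.2 ± 9.83 and Gbp3 at 90.9 ± 18.8 CPM per kb overlapped. Without the first day 3 tumor their means were 102 and 100 CPM per kb. Gbp10 at 27.2 ± 4.26 and Gbp5 at 22 ± 2.68 CPM per kb overlapped as well. Gbp8, at 29.1 ± 15.7 CPM per kb, could not be placed against either of them, since its mean without the first day 3 tumor was 20 CPM per kb, beside 25.2 for Gbp10 and 20.5 CPM per kb for Gbp5.

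**Figure D2:**
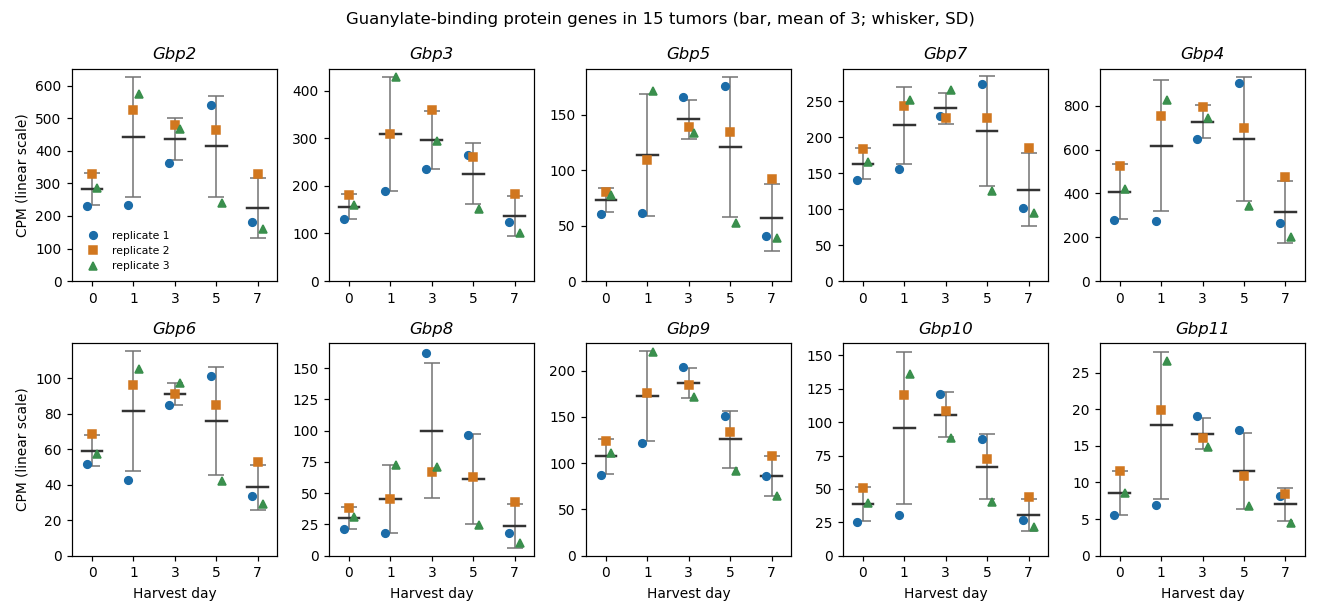
CPM (linear scale, separate axis per gene) of the 10 genes in each tumor by harvest day, with symbols for replicates, bars for the mean of 3 tumors and whiskers for the SD. In every panel the 3 day 3 tumors lie above the 3 day 0 tumors and above the 3 day 7 tumors. For Gbp4 the day 1 tumors run from 275 to 826 CPM and the day 5 tumors from 343 to 905 CPM, around the 648 to 794 CPM of day 3.

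Gbp3, a member of the chromosome 3 cluster, had 130, 181 and 159 CPM in the untreated tumors, 189, 309 and 430 CPM in those of day 1, 236, 359 and 295 CPM in those of day 3, 265, 260 and 152 CPM in those of day 5 and 124, 183 and 102 CPM in those of day 7. It was the only member whose 3 day 1 tumors were all above the 3 untreated ones. Gbp5 had 60.2, 80.4 and 77.6 CPM untreated, then 61.2, 109 and 171 CPM (day 1), 166, 139 and 133 CPM (day 3), 176, 134 and 52.3 CPM (day 5) and 40.4, 91.7 and 38.9 CPM (day 7). Its day 3 tumors kept to a narrow band, while 1 tumor of day 1 was within and 1 of day 5 below the untreated range. Gbp2 ranged from 232 to 329, 233 to 574, 364 to 479, 240 to 540 and 161 to 329 CPM on the 5 harvest days in order. Gbp7 ranged from 140 to 183, 155 to 251, 226 to 265, 125 to 274 and 95.1 to 185 CPM. For both genes the day 3 tumors lay above all untreated and all day 7 tumors.

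Of the chromosome 5 cluster, Gbp9 had 86.9, 124 and 111 CPM untreated, then 122, 176 and 220 CPM (day 1), 204, 185 and 172 CPM (day 3), 151, 134 and 92 CPM (day 5) and 86.4, 108 and 64.7 CPM (day 7). Its day 3 tumors were above every tumor of days 0, 5 and 7. Gbp10 had 25.2, 50.9 and 39.6 CPM untreated, then 30.3, 120 and 136 CPM (day 1), 121, 108 and 87.9 CPM (day 3), 87.5, 72.6 and 39.9 CPM (day 5) and 26.6, 43.7 and 21.2 CPM (day 7). It likewise separated day 3 from days 0, 5 and 7, although the lowest day 3 tumor (87.9 CPM) and the highest day 5 tumor (87.5 CPM) nearly met. Gbp8 had 21, 38.2 and 30.9 CPM untreated, then 18.3, 45 and 72.8 CPM (day 1), 162, 67.1 and 70.7 CPM (day 3), 96.8, 62.8 and 24.8 CPM (day 5) and 18, 43.2 and 10.1 CPM (day 7). The day 3 mean of Gbp8 rested on 1 tumor, the one that stood apart, and was 100 ± 54 CPM with it and 68.9 CPM without it. Gbp4, the member with the highest CPM, ranged from 279 to 527, 275 to 826, 648 to 794, 343 to 905 and 202 to 473 CPM on the 5 harvest days in order. Gbp6 ranged from 51.8 to 68.5, 42.5 to 105, 85.1 to 97.2, 41.9 to 101 and 29.1 to 52.8 CPM, and Gbp11 from 5.5 to 11.5, 6.88 to 26.6, 14.9 to 19, 6.72 to 17.1 and 4.43 to 8.44 CPM. The sum of Gbp6, Gbp10 and Gm43302 was 210 ± 47.4, 389 ± 182, 426 ± 25.4, 333 ± 133 and 164 ± 56.5 CPM (mean ± SD, n = 3 a day), highest on day 3 and lowest on day 7 as the single rows were.

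**Figure D3:**
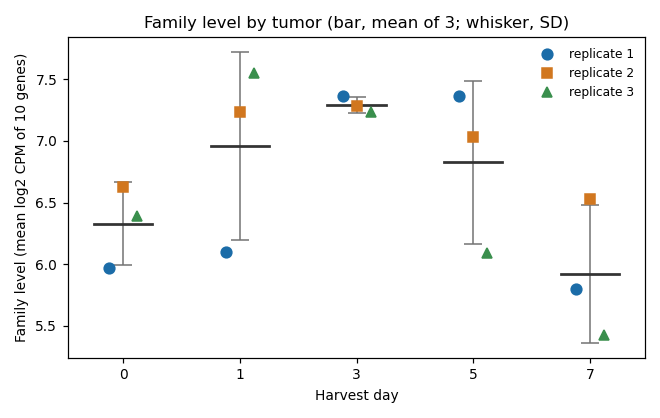
Family level, the mean log2 CPM of the 10 genes, in each of the 15 tumors by harvest day, with bars for the mean of 3 tumors and whiskers for the SD. Day 3 tumors sit between 7.23 and 7.36, whereas days 1 and 5 run from 6.10 to 7.55 and from 6.09 to 7.36.

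The family level, the mean log2 CPM over the 10 genes, was 6.33 ± 0.33 in untreated tumors, 6.96 ± 0.76 after 1 day, 7.29 ± 0.07 after 3, 6.83 ± 0.66 after 5 and 5.92 ± 0.56 after 7 days (SD, n = 3 each). Without the first tumor, day 3 was at 7.26 ± 0.04. In sum the 10 genes took 1330 ± 283 CPM of untreated tumors and 2110 ± 875, 2350 ± 113, 1960 ± 765 and 1040 ± 418 CPM of treated tumors in order of day. The tumors of day 1 did not move as a group. The first day 1 tumor had a family level of 6.10, within the untreated range of 5.97 to 6.63, while the second and the third were at 7.23 and 7.55, the third being the highest of all 15. Day 5 was split as well, with tumors at 7.36, 7.03 and 6.09. On day 7 the second tumor, at 6.53, was within the untreated range, and the first and the third, at 5.80 and 5.43, were below it. The third day 7 tumor ranked last of the 15 for all 10 genes, and the third day 1 tumor was among the top 3 for all 10.

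**Figure D4:**
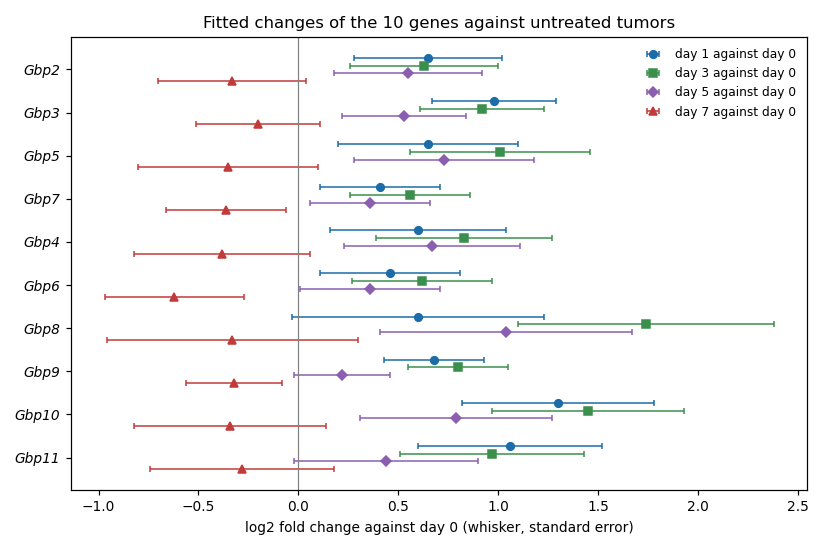
Fitted log2 fold change of each gene on days 1, 3, 5 and 7 against day 0, with whiskers for the standard error. Points of days 1, 3 and 5 are right of 0 and those of day 7 left of 0 for all 10 genes, and Gbp8 and Gbp10 have the largest values on day 3, at 1.74 and 1.45.

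Day 1 against day 0 asked how the family stood after the first treatment. All 10 members had higher fitted values, and their log2 fold changes had a median of 0.65 against 0.00 over all genes tested, from 0.41 for Gbp7 to 1.30 for Gbp10. Gbp10 was 2.47-fold (log2 1.30, SE 0.48), Gbp11 2.09-fold (1.06, SE 0.46), Gbp3 1.97-fold (0.98, SE 0.31) and Gbp9 1.6-fold (0.68, SE 0.25) the untreated level. No member passed an adjusted p of 0.05 by edgeR's quasi-likelihood test, where 0% of all genes did. At an unadjusted p under 0.05, Gbp3, Gbp9, Gbp10 and Gbp11 were higher, 4 of 10 members beside 2.18% of all genes. DESeq2 called 0 members, beside 0.239% of all genes that it called higher. The 3 day 1 tumors were above all untreated tumors for 1 of 10 members, beside 5.76% of genes. Without the third day 1 tumor the count of 4 was 0, beside 0.815% of all genes, without the first day 0 tumor 1 (1.2%), without the second day 1 tumor 2 (2.09%) and without the first day 1 tumor 7 (3.51%).

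On day 3 every member was higher in each treated tumor than in each untreated one, and the family level varied less between tumors than on any other day. The groups did not overlap for all 10 members, beside 19.4% of all genes that were higher without overlap. The median log2 fold change was 0.88 against −0.02 over all genes. Gbp8 reached 3.34-fold the untreated level (log2 1.74, SE 0.64), Gbp10 2.73-fold (1.45, SE 0.48), Gbp5 2.01-fold (1.01, SE 0.45), Gbp3 1.89-fold (0.92, SE 0.31) and Gbp9 1.74-fold (0.80, SE 0.25). Gbp11 was at 1.96-fold, Gbp4 at 1.78-fold, Gbp2 at 1.55-fold, Gbp6 at 1.54-fold and Gbp7 at 1.48-fold. edgeR called none of the 10 and 0% of all genes, with adjusted p from 0.115 for Gbp3, Gbp9 and Gbp10 to 0.246 for Gbp2. At an unadjusted p under 0.05, 5 members were higher (Gbp3, Gbp5, Gbp8, Gbp9 and Gbp10), beside 18.3% of all genes.

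DESeq2 called 4 members higher on day 3, beside 9.02% of all genes. They were Gbp9 (adjusted p = 0.0266 by DESeq2), Gbp10 (0.0286), Gbp3 (0.0347) and Gbp8 (0.0371). DESeq2 called 0 members without the first day 3 tumor, where it called 0.28% of all genes higher, and 0 without the first or the third day 0 tumor, beside 0.0388% and 0.259% of genes. It called 2 without the second day 0 tumor, beside 2.12% of genes. In these fits the calls fell over all genes as well as in the family. The edgeR count at an unadjusted p under 0.05 was 3 without the first day 3 tumor (6.52% of all genes), 3 without the first day 0 tumor (10.3%), and 10 when the fit held day 0 and day 3 tumors only (14.4%). The fitted values themselves did not hang on the tumor that stood apart, except for Gbp8. Without it the median log2 fold change was 0.89, and Gbp3 was at 1.07, Gbp10 at 1.35 and Gbp9 at 0.73, while Gbp8 went from 1.74 to 1.20. The sum of Gbp6, Gbp10 and Gm43302 was at 1.02 on the log2 scale (SE 0.39, adjusted p = 0.128 by edgeR).

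Day 5 values were between those of day 3 and day 0. All 10 members had higher fitted values than untreated tumors, at a median of 0.54 on the log2 scale against 0.00 over all genes, from 0.22 for Gbp9 to 1.04 for Gbp8. None differed by edgeR, with adjusted p from 0.859 to 0.897 and 0% of all genes called, and none was higher at an unadjusted p under 0.05, where 1.41% of all genes were. DESeq2 called 0 members, beside 0.0194% of genes, and no member was free of overlap between the groups, beside 6.89%. The third day 5 tumor lay below the mean of the untreated tumors for all members except Gbp10, at 39.9 CPM against a day 0 mean of 38.6 CPM. Against day 3, all 10 members had lower fitted values on day 5, from −0.08 for Gbp2 to −0.70 for Gbp8. The mean of Gbp8 was 61.5 CPM on day 5, against 100 CPM on day 3, or 68.9 CPM without the first day 3 tumor. Gbp9 was the 1 member with an unadjusted p under 0.05 (log2 −0.57, SE 0.24, adjusted p = 0.503 by edgeR), beside 5.24% of genes. Gbp9 and Gbp10 were the 2 members whose day 5 tumors were all below the day 3 tumors, beside 4.83% of genes, while edgeR and DESeq2 each called 0 members and 0% of all genes.

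On day 7, after the planned end of dosing, the family was back at or below the untreated level. The fitted values of all 10 members were lower than before treatment, at a median of −0.34 on the log2 scale against −0.02 over all genes, from −0.20 for Gbp3 to −0.62 for Gbp6. None passed edgeR's test, where 0% of genes did, and none had an unadjusted p under 0.05, beside 1.02% of genes that were lower. DESeq2 called 0 members and 0.0129% of genes lower, and the groups overlapped for every member, beside 6.26% of genes lower without overlap. With 3 tumors per day the standard errors of these differences were 0.24 to 0.63 on the log2 scale, so a return to the untreated level and a moderate fall below it were not distinguishable.

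Of the 7 contrasts between days, that of day 7 with day 3 had the largest median change for this family. The day 7 tumors were below the day 3 tumors for all 10 members, beside 18.4% of all genes, and the median log2 fold change was −1.23 against 0.02 over all genes. Gbp8 was at 0.238-fold its day 3 level (log2 −2.07, SE 0.65) and Gbp10 at 0.289-fold (−1.79, SE 0.49). Gbp5 was at 0.39-fold, Gbp11 at 0.421-fold, Gbp6 at 0.422-fold, Gbp4 at 0.431-fold, Gbp3 at 0.459-fold, Gbp9 at 0.461-fold, Gbp2 at 0.514-fold and Gbp7 at 0.528-fold. All 10 were lower at an unadjusted p under 0.05, beside 22.6% of genes. edgeR's adjusted p ran from 0.0832 for 5 members (Gbp3, Gbp6, Gbp8, Gbp9 and Gbp10) to 0.104 for Gbp2, so that it called 0 members and 0% of all genes.

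DESeq2 called all 10 members lower on day 7 than on day 3, beside 15.1% of all genes, with adjusted p from 0.00468 for Gbp9 and 0.00989 for Gbp10 to 0.0458 for Gbp2. Without the first day 7 tumor it called 0 members and 0.0388% of all genes lower, without the third day 7 tumor 1 member and 0.0518%, and without the first day 3 tumor 2 members and 0.345%. The calls fell over all genes as well as in the family. By edgeR 2 members, Gbp9 and Gbp10, passed when the third day 3 tumor was left out, each with an adjusted p of 0.0493, beside 10.1% of all genes that were called lower in that fit. Without the first day 3 tumor the median log2 fold change was −1.25 and all 10 members kept their direction, with Gbp8 at −1.53. The sum of Gbp6, Gbp10 and Gm43302 was at −1.38 (SE 0.39, adjusted p = 0.0833 by edgeR).

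Between day 1 and day 3 the family showed no common direction. Fitted values were higher on day 3 for 7 members and lower for 3 (Gbp2, Gbp3 and Gbp11), with a median log2 fold change of 0.15 against −0.03 over all genes, and Gbp8 was the farthest from 0 at 1.14 (SE 0.63). The mean of Gbp8 was 45.4 CPM on day 1, against 100 CPM on day 3, or 68.9 CPM without the first day 3 tumor. No member had an unadjusted p under 0.05, beside 12.8% of genes that were higher, DESeq2 called 0 members beside 0.11% of genes, and every member overlapped, beside 7.53% of genes higher without overlap. edgeR called 0% of genes. Without the first day 1 tumor, whose family level was within the untreated range, the median was −0.13.

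The joint test of the 4 treated days against day 0 called none of the 10 by edgeR, where 0% of all genes passed. The lowest adjusted p was 0.292, for Gbp3, Gbp9 and Gbp10. Gbp3, Gbp6, Gbp8, Gbp9 and Gbp10 had an unadjusted p under 0.05 in it, 5 members beside 16.2% of genes. DESeq2 called 3 members, Gbp9 (adjusted p = 0.00503), Gbp3 (0.0134) and Gbp10 (0.0175), beside 7.59% of genes. Its count was 1 without the first day 0 tumor or without the first or the third day 7 tumor, where it called 1.44%, 2.23% and 2.88% of all genes, 8 without the first day 1 tumor (6.9%), and 9 without the third day 5 (12.2%) or the second day 7 tumor (14%). The edgeR count at an unadjusted p under 0.05 was 10 without the first day 1 (15% of all genes) or the third day 5 tumor (19.1%) and 9 without the second day 7 tumor (19.4%). It was 3 without the first or the third day 0 tumor, the second day 1 tumor, the first day 3 tumor, the second day 5 tumor or the first or the third day 7 tumor, fits in which 7.22% to 12.8% of all genes passed.

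Members varied together from tumor to tumor. Over the 45 pairs of members, the correlation of log2 CPM across the 15 tumors was 0.79 to 0.98 with a median of 0.91, and after removal of the day means it was 0.75 to 0.99 with the same median of 0.91. The tumors share their library, depth and scaling between members, and the values are given as a description. Gbp2 and Gbp4, on different chromosomes, were the closest pair at 0.98. Gbp3 and Gbp8 were the least alike at 0.79. The share of the variance that lay between harvest days was 45.5% in Gbp4, 46.8% in Gbp2, 64.7% in Gbp3 and 70.9% in Gbp9. These shares are not adjusted for the number of day means fitted to 15 tumors, so part of each would arise without any effect of day. They carry no test, and the share over all genes is not given here. By cluster, the median log2 fold change on day 3 was 0.77 for the 4 members on chromosome 3 and 0.90 for the 6 on chromosome 5. It was −0.24 and −0.55 on day 5 against day 3, and −1.04 and −1.25 on day 7 against day 3, and the clusters were not tested against each other.

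**Figure D5:**
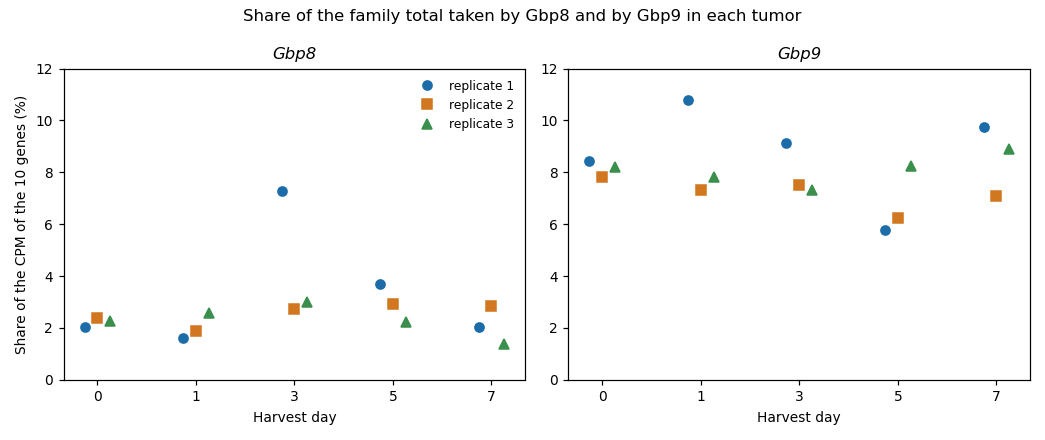
Share (in %) of the summed CPM of the 10 genes taken by Gbp8 (left) and by Gbp9 (right) in each tumor by harvest day, with symbols for replicates. The first day 3 tumor has a Gbp8 share of 7.26%, and the other 14 tumors lie between 1.39% and 3.70%.

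The make-up of the family was steadier than its level. Gbp4 supplied 24.2% to 34.6% of the family's CPM in the 15 tumors, Gbp2 16.3% to 22.5%, Gbp3 10.1% to 16.7%, Gbp7 8.93% to 13.7%, Gbp9 5.78% to 10.8% and Gbp5 4.55% to 7.44%. Gbp6 supplied 3.48% to 5.02%, Gbp10 2.44% to 5.39% and Gbp11 0.509% to 0.945%. Gbp8 was the exception, with 7.26% in the first day 3 tumor against 1.39% to 3.70% in the other 14. In that tumor Gbp5 and Gbp10 also had their highest shares, 7.44% and 5.39%, and Gbp2 its lowest, 16.3%. The same tumor had summed macrophage markers of 3000 CPM against 638 to 1540 CPM in the others, T cell markers of 228 CPM against 9.53 to 121 CPM, B cell markers of 30.4 CPM against 1.28 to 5.71 CPM, and dendritic markers of 66.8 CPM against 6.27 to 39.8 CPM. The part of these cells in the Gbp8 share was not tested.

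Genes of the upstream signal had fitted values in the same direction as the family on day 3. Of 14 genes for the inducing interferons' receptors, kinases and transcription factors, 13 had higher fitted values than day 0, beside 7433 of 15494 genes tested. At an unadjusted p under 0.05, 9 were higher, beside 18.3% of all genes. DESeq2 called 5 higher, beside 9.02% of genes, while edgeR called 0. Of the 5, Ifngr1, Ifnar2, Irf8 and Irf9 were highest in the first day 3 tumor and Stat2 was not. Without that tumor DESeq2 called 0.28% of all genes higher on day 3 and 0.345% lower on day 7 against day 3. Its calls for this list and for the lists below were not counted in that fit. Ifng, which encodes interferon-γ, had 1.65, 2.05 and 2.72 CPM on day 0 and 5.56, 8.31 and 5.29 CPM on day 3, a log2 fold change of 1.58 (SE 0.72, adjusted p = 0.163 by edgeR). Its counts were low, 17 to 226 per tumor. Irf9, a DNA-binding factor of the type I interferon response, had the lowest p of the list on day 3 (log2 0.58, SE 0.17, adjusted p = 0.115 by edgeR and 0.0263 by DESeq2). Irf1, a transcription factor that interferons induce, had the highest p, with 339 ± 14.6 CPM on day 0 and 447 ± 67.4 CPM on day 3 (log2 0.40, SE 0.29, adjusted p = 0.331). On day 7 against day 3 all 14 were lower, 12 at an unadjusted p under 0.05 (22.6% of all genes) and 9 by DESeq2 (15.1%).

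The immunity-related GTPases, which act beside guanylate-binding proteins on vacuoles, had fitted values close to the family's. The 8 genes tested included Irgb10 under its symbol Gm12250. All 8 were higher on day 1, 5 of them at an unadjusted p under 0.05, beside 2.18% of all genes. All 8 were higher on day 3, 4 at an unadjusted p under 0.05 (18.3% of all genes) and 1, Gm12250, by DESeq2 (9.02%). In order of the treated days their median log2 fold changes were 0.73, 0.75, 0.56 and −0.27, where the guanylate-binding proteins had 0.65, 0.88, 0.54 and −0.34. Gm12250 was at 1.07 on day 3 (SE 0.39, adjusted p = 0.121 by edgeR), and Tgtp1, with the highest p, at 0.54 (SE 0.41). On day 7 against day 3 all 8 were lower at an unadjusted p under 0.05 (22.6% of all genes) and 7 by DESeq2 (15.1%), with a median of −1.01. edgeR called 0 of them in both comparisons.

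Of the 8 inflammasome and pyroptosis genes, 7 were higher on day 3, 5 at an unadjusted p under 0.05 (18.3% of all genes) and 4 by DESeq2 (9.02%), and edgeR called 0. Of the 4, Aim2, Pycard and Il18 were highest in the first day 3 tumor and Casp1 was not. Aim2, a sensor of cytosolic DNA, was 2.73-fold its day 0 level (log2 1.45, SE 0.38, adjusted p = 0.115 by edgeR and 0.0135 by DESeq2). It had 44.4 CPM in the first day 3 tumor, 17.7 and 18.1 CPM in the others of that day, and 7.49, 10.8 and 11.1 CPM on day 0. Gsdmd, which encodes the pore-forming gasdermin D, was at 1.33-fold (log2 0.41, SE 0.20), and Il1b at 0.914-fold (log2 −0.13, SE 0.46), with the highest p. The 2 lists on which the proteins depend for their place in the cell are given beside the family median of 0.88, with no test of the difference. The 8 genes of ATG8 conjugation and the ATG8 homologs had a median of 0.18 on day 3, with Gabarapl1 at 0.05. Atg7 was the 1 gene at an unadjusted p under 0.05 and the 1 called by DESeq2, beside 18.3% and 9.02% of all genes. It was at log2 0.57 (SE 0.18, adjusted p = 0.0341 by DESeq2). Its day 3 tumors had 44.1, 28.2 and 29 CPM, highest in the first, against 23.3, 21.5 and 23.1 CPM on day 0. The 5 prenylation genes had a median of −0.16, with Fntb at −0.23 (SE 0.14) and Rce1 at 0.03 (SE 0.12). None had an unadjusted p under 0.05 and DESeq2 called 0, where 1819 and 606 of 15494 genes were lower by these rules.

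The genes whose pattern over the 15 tumors was most like the family level were sought among 15483 tested genes outside the family. Gm43302, which shares sequence with Gbp6 and Gbp10 and so is no separate measure, was first with r = 0.989. Among the next were Psme1, a subunit of the proteasome activator PA28, at 0.983, Gm4951 at 0.980, Tapbpl, a peptide editor of MHC class I, at 0.978, Ifi47 and Tgtp2, both immunity-related GTPases, at 0.976 each, Tap1, a peptide transporter, at 0.975, Idnk at 0.975 and Cd274, which encodes PD-L1, at 0.971. After removal of the day means the genes named were still at 0.95 to 0.99. Without the 2 tumors farthest from the median family level they were at 0.963 to 0.987. Ifng ranked 66th at 0.926, or 0.903 without the 2 farthest tumors, and Irf1 ranked 79th at 0.920. Gbp8 was the only member searched singly, after its values were seen, and its nearest genes were other than those of the family level. They were Irf8, a factor of the monocyte and dendritic lineages, at 0.992, Cybb, the phagocyte oxidase subunit, at 0.982, Irf4 at 0.981, Tnfrsf14 at 0.980 and Itgal at 0.980. After removal of the day means these were at 0.96 to 0.99. Without the 2 tumors farthest from the median of Gbp8, Irf8 was at 0.985 and the others at 0.963 to 0.971. All of these are correlations over tumors that share libraries and carry no test. Irf8 had 70.1 CPM on day 0 and 167 CPM on day 3 as means, with 230, 139 and 131 CPM in the 3 day 3 tumors, so its highest day 3 value was in the same tumor as that of Gbp8.

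Summed markers of several cell types were, like the family, highest on day 3 when all 3 tumors were counted. DESeq2 called 9.02% of all genes higher on day 3, and 0.28% without the first day 3 tumor. Its calls of markers in the latter fit were not counted. The ranges that follow are those of the 5 harvest days in order. Summed T cell markers were 21.4 to 31.5, 18.1 to 57.3, 62.5 to 228, 20.3 to 121 and 9.53 to 43.7 CPM, and all 6 markers were higher on day 3 by the fitted values, 5 by DESeq2. NK and cytotoxic markers were 60.2 to 92, 48.9 to 187, 158 to 266, 43.8 to 212 and 18.7 to 90.3 CPM, with 5 of 5 higher on day 3 and 2 by DESeq2. Macrophage markers were 934 to 1070, 735 to 1410, 1370 to 3000, 954 to 1480 and 638 to 1250 CPM, with 5 of 6 higher on day 3, all 5 by DESeq2. Neutrophil markers were 25.5 to 39.8, 24.6 to 114, 71.4 to 193, 29.1 to 88.5 and 11.4 to 58.5 CPM, and endothelial markers 152 to 163, 116 to 223, 158 to 487, 103 to 272 and 74.7 to 161 CPM. Some tumors that led their day in the family level also led it in markers. The third day 1 tumor had 57.3 CPM of T cell markers against 18.1 and 18.8 CPM in the other two, and the second day 7 tumor had 43.7 CPM against 13.2 and 9.53 CPM. The second day 1 tumor, however, had a family level of 7.23 with T cell markers of 18.8 CPM, neutrophil markers of 27.8 CPM and macrophage markers of 901 CPM, each within or below the untreated range. Among the adipocyte markers Lep was at 0 in 4, Cidec in 2 and Adipoq in 1. Skeletal muscle marker Myh4 was at 0 in 1 tumor, and no T cell, NK, macrophage, neutrophil, dendritic, endothelial or fibroblast marker was at 0 in any. Summed muscle and adipocyte markers were 2.42 to 137 and 3.47 to 53.7 CPM outside the first day 3 tumor, and 2160 and 231 CPM in it. The part of these cell types in the levels of guanylate-binding proteins was not tested.

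Gbp2b, the gene between Gbp3 and Gbp2, followed the same course outside the 10. It had 330 ± 50.2 CPM untreated and 509 ± 235, 545 ± 33.7, 496 ± 190 and 246 ± 107 CPM on the treated days in order. Its log2 fold change was 0.72 on day 3 (SE 0.39, adjusted p = 0.214 by edgeR) and −1.15 on day 7 against day 3 (SE 0.40, adjusted p = 0.0879 by edgeR and 0.0257 by DESeq2).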

How the data were processed

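Poly(A) RNA of 15 tumors was sequenced by the study as single-end reads. Per the labels and the study's methods, the authors quantified transcripts with kallisto and summed them to genes on mouse GRCm38, and the deposited values are estimated counts, written as whole numbers. The strandedness and the transcript set are not given in the sources used here. Genes overlapping on one strand, or near copies, share reads that kallisto divides by its own model. A row of date-like names, 1 in all, was left out (0.0202% to 0.0268% of counts).

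Genes above the study's minimum of about 0.37 CPM in at least 3 tumors were kept. All 15 tumors were fitted with edgeR 4.0.16 (R 4.3.3; TMM, quasi-likelihood F test, harvest day as the factor), with Benjamini-Hochberg adjustment over 15494 genes, two-sided, and a call at an adjusted p under 0.05. Standard errors come from the F statistic. DESeq2 1.42.0 was run as an alternative. Log2 CPM used a prior count of 2. An exact permutation test of 3 against 3 tumors cannot go below p = 0.1 and was not used. Totals were 23718507 to 31919739 counts, and 3 counts, the limit that a count of 0 allows, equal 0.0972 to 0.125 CPM. These limits cover counting error only. Tumors of a day differed by more than sampling noise (chi-square per degree of freedom 9.32 to 269), so each was counted as 1 sample.

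Samples were grouped by the harvest day in the labels. The members and lists were chosen with earlier results of these data known. All members were named, with the 10 genes most correlated with the family level, and in each pathway list the genes with the lowest and highest p on day 3 plus Ifng and Irf1. Some genes that these rules select are not reported here. Alternatives were RLE size factors, no filter, only the days compared, a replicate block and each tumor left out. The summed Gbp6, Gbp10 and Gm43302 counts, the nearest genes of Gbp8, the full spacing of the response element (GAAANNGAAA, in place of the planned GAANNGAAA, present in 7.52% of promoters) and the repeated DESeq2 fits were chosen after seeing the data. The scripts were tested on simulated data.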

Additional observations from a re-analysis of the deposited data

Results flagged for a closer look

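For Gbp6 and Gbp11 the 3 day 3 tumors were all above the mean of the untreated tumors and the 3 day 7 tumors all below it. The mean log2 CPM on day 7 minus that on day 3 was −1.29 for each of them. The difference between both effects is the contrast of day 7 with day 3, for which the adjusted p was 0.0832 for Gbp6 and 0.0979 for Gbp11 by edgeR and 0.0128 and 0.0409 by DESeq2. The 2 effects share the same untreated tumors.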

How the results depend on the processing

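The number of members called by edgeR was 0 in all 8 tests with all 15 tumors, and 0 with RLE size factors, without a filter, with only the days compared (not applicable to the joint test) and with the replicate block. DESeq2 called 4 on day 3 (9.02% of all genes), 10 on day 7 against day 3 (15.1%) and 3 in the joint test (7.59%). Leaving out 1 tumor gave 0 to 2 edgeR calls on day 7 against day 3, beside 0% to 10.1% of all genes. The median log2 fold change of day 3 against day 1 was −0.13 to 0.36, the only one that turned. Over the same fits it was, in order of the treated days against day 0, 0.38 to 0.96, 0.70 to 1.05, 0.33 to 0.79 and −0.73 to −0.14, and it was −0.59 to −0.08 for day 5 and −1.47 to −0.99 for day 7 against day 3. Counts at an unadjusted p under 0.05 were 0 to 7 for day 1 (0.815% to 3.64% of all genes) and 3 to 7 for day 3 (6.52% to 22.6%). They were 7 to 10 for day 7 against day 3 (8.48% to 25.2%) and 3 to 10 in the joint test (7.22% to 21.7%). With only the days compared the count was 10 on day 3 (14.4%). DESeq2 counts were 0 to 5 on day 3 (0.0388% to 16.9% of all genes), 0 to 10 on day 7 against day 3 (0.0388% to 21%) and 1 to 9 in the joint test (1.18% to 15.3%). The cause was not tested. Of 600 refits of single members, which covered day 1 and day 3 against day 0 and day 7 against day 3, none changed sign and 16 passed the threshold that the first fit had missed. Replicate numbers did not pair tumors, with correlations of −0.62 to 0.51 over 30 same-numbered pairs, 9 above 0.1, and 4 of 15 tumors closest to their own number. With the replicate block the medians were 0.67, 0.89, 0.56 and −0.38 in order of the treated days against day 0. They were 0.18 on day 3 against day 1, −0.33 on day 5 and −1.27 on day 7 against day 3. Counts in that fit at an unadjusted p under 0.05 were 3 for day 1 (1.78% of all genes) and 4 for day 3 (13.7%). They were 10 for day 7 against day 3 (18.6%) and 4 in the joint test (8.55%). Each member had at least 106 counts in every tumor, and whether deeper libraries or more tumors would change the calls was not tested.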
